A study of Mus musculus with 2 samples.

Results

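The cells described here are the CD8 T cells of kidneys of lupus-prone mice, 1343 of 21661 cells that passed quality filters in single-cell RNA sequencing (scRNA-seq). They were chosen from their own transcripts, counted as unique molecular identifiers (UMIs, each a captured mRNA molecule). A cell was taken when it held at least 1 UMI of a CD3 chain gene (Cd3d, Cd3e or Cd3g) and at least 1 UMI of Cd8a or Cd8b1, no UMI of Cd4, Foxp3 or Trdc, and fewer than 2 of the 4 division genes Mki67, Top2a, Birc5 and Cdk1. These genes therefore describe the choice and are not findings. The study followed innate lymphoid cells (ILCs) in lupus nephritis of MRL-*lpr* mice (MRL/MpJ-Fas lpr/J), and its scRNA-seq compared kidneys labelled young with kidneys labelled old. Both groups carry the Fas lpr mutation, which impairs the death receptor Fas, so that nothing here is set against Fas-competent mice, and the labels name no treatment. Each age is 1 library of cells from pooled kidneys (the number of mice is not given in the sources used here), prepared on a density gradient, enriched with an ILC kit and sorted for live cells. The number of cells in each class therefore also reflects that enrichment, and there is no replicate at either age.

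CD8 T cells recognise peptides on MHC class I molecules and kill the presenting cell with perforin, which opens the target membrane, and granzymes, proteases that enter through it. Naive cells carry Ccr7, which leads them to lymph nodes, and the transcription factor gene Lef1. Effector cells and many memory cells leave these behind and secrete chemokines and interferon-γ (IFN-γ). In tissue they may acquire residency integrins or, under lasting antigen, inhibitory receptors such as PD-1. In lupus nephritis, CD8 T cells are known from kidney infiltrates, and *lpr* mice also gather T cells that carry neither CD4 nor CD8.

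The promoters of 4 genes of the killing machinery are shown because these genes stood higher in old cells and because 2 families of transcription factors known from cytotoxic T cells, RUNX and T-box factors, have short recognition letters that can be read in them. Each run is the 200 bases before the RefSeq start of the gene (GRCm38.p6), 5′ to 3′ on the coding strand, with capitals marking a match to TGTGGT (RUNX), GGTGTGA (T-box) or TGANTCA (AP-1) on either strand.
Gzmk Promoter: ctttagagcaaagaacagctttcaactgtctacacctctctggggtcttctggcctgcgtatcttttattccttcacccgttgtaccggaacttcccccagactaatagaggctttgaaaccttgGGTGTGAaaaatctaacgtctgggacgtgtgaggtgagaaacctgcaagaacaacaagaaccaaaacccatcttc
Nkg7 Promoter: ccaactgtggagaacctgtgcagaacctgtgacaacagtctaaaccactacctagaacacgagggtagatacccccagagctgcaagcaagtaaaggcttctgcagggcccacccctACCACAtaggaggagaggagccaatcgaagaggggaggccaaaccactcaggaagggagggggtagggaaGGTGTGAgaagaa
Gzmb Promoter: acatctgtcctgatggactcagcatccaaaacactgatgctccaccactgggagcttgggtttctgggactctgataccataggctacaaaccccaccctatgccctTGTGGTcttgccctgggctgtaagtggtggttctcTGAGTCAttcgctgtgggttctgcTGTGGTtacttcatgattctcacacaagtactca
Prf1 Promoter: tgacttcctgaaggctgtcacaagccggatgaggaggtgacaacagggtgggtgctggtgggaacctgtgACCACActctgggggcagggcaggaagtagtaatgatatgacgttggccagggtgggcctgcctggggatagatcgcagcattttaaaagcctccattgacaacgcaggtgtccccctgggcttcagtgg

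The 4 stretches lie at chr13:113180966-113181165, minus strand (Gzmk), chr7:43436938-43437137, plus strand (Nkg7), chr14:56262335-56262534, minus strand (Gzmb) and chr10:61297636-61297835, plus strand (Prf1). Gzmk, a granzyme of memory-type cells, held a T-box match whose first base is at position -75 from the start. Nkg7, a granule membrane protein, held RUNX letters at -83 and T-box letters at -13. In Gzmb, the granzyme that triggers caspases, RUNX letters stood at -93 and -34 with AP-1 letters at -58 between them, and in Prf1, perforin, RUNX letters stood at -130. Among 32851 promoter stretches of this length, 11.2% held the RUNX letters, 2.64% the T-box letters and 5.48% the AP-1 letters, and the 3 motifs share no bases in these 4 stretches. Gzma, which did not differ with age, held RUNX letters at -50, and 1 of the 2 Gzmm starts in the table had T-box letters at -189. No match to the 3 motifs was found in the same window of Cd8a, Ifng, Eomes, Pdcd1 or Lef1. Such matches describe the letters only. Cd8b1, Ccl5, Itgae, Lag3, Ccr7 and Klrd1 were not in the promoter table.

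Several features of the libraries touch every value below. CD8 cells had a median of 5233 UMIs in the young and 6002 UMIs in the old library, and 1283020 and 8775682 UMIs in all. Transcripts of the proximal tubule, the main epithelium of the kidney cortex, were found throughout: Kap, a tubule gene, was detected in 100% of young and 96.7% of old CD8 cells, at 13804 (13602-14009) in young and 3594 (3554-3634) in old cells (CPM, a gene's UMIs divided by all UMIs of these cells in that library and scaled to the same total, with the exact 95% Poisson interval, which covers counting error only). At least 3 of 6 tubule genes (Lrp2, Slc34a1, Slc5a12, Miox, Pck1 and Fbp1) were present in 44.6% of young and 13.7% of old CD8 cells. Summed over 10 tubule markers, the level was 24703 CPM in young and 8893 in old cells, and 8 of the 10 were at least 2-fold lower in old cells. A doublet caller marked 13 young and 51 old CD8 cells, which were kept. For these reasons many of the comparisons are also given for the cells, called tubule-low here, with fewer than 3 of those tubule genes and no UMI of Cd79a, Jchain, C1qa, Lyz2, Il1rl1 or Ncr1, which left 92 young and 855 old cells. Kap was lower but not absent in them, at 2443 in young and 687 in old cells. This restriction was added after the data were seen.

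The study's methods describe female mice, yet Y-linked transcripts without Xist were found in 102 young and 460 old CD8 cells, and Xist without Y-linked transcripts in 18 young and 424 old cells. Both were seen in 3 young and 50 old cells, and neither in 52 and 234. The libraries therefore hold cells of both kinds in different proportions, and for some genes results are also given within each kind. Of 26 barcodes that the libraries shared among kept cells, 1 was a CD8 cell in both.

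CD8 T cells made up a larger share of the old library. They numbered 175 of 11429 kept young cells (1.53%, exact 95% binomial interval 1.31-1.77%) and 1168 of 10232 kept old cells (11.4%, 10.8-12.05%). As a share of all cells with a CD3 UMI, the values were 14.4% (12.5-16.5%) of 1215 young and 23.4% (22.2-24.6%) of 4995 old cells, so that the difference was smaller with that denominator. With 1 library per age, these intervals hold counting error only, and neither the spread between mice nor the yield of the enrichment was measured.

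Markers of CD8 effector and memory cells that the choice did not use were present at both ages. Ccl5, a chemokine stored in effector and memory CD8 cells, reached 6256 (6120.2-6395) in young and 12191 (12118-12264) in old cells, with a UMI in 60.6% of young and 90.5% of old cells. Nkg7 was detected in 94.3% of young and 96.9% of old cells, and Gzmk in 34.3% and 64.6%. In proximal tubule cells of the same libraries, which should lack these genes, Ccl5 was detected in 2.33% of young and 17.4% of old cells, Nkg7 in 0.987% and 5.36%, and Gzmk in 0.0143% and 0.328%, although tubule cells were deeper (medians of 12772 and 14297.5 UMIs). After each cell was thinned to 1000 UMIs, which left out 13 old and no young CD8 cells, Ccl5 remained in 56.6% of young and 83.8% of old CD8 cells against 0.244% and 1.62% of tubule cells. Of 7 CD4 and regulatory T cell markers, 2 passed the filter on level described below, and of these Ctla4 was at least 2-fold higher in old cells and Ikzf2 was not called. Cd40lg, below the filter, was at 9.35 in young and 1.25 in old cells. Of 9 markers of NK cells and ILC1, 5 passed the filter and 4 (Eomes, Klre1, Fcer1g and Tyrobp) were at least 2-fold higher in old cells, and in tubule-low cells Eomes and Klre1, 2 of 3, were. Klre1, Fcer1g and Tyrobp passed through their old level alone, so that their calls follow in part from the filter. Beside the counts of both marker lists, 2.61% of all genes were at least 2-fold higher, and 2.74% in tubule-low cells. Ncr1, an NK cell receptor, had UMIs in 1 young and 7 old cells, and Klra8 was at 0 in both libraries. Endothelial Cdh5 was also at 0, and the summed level of 6 endothelial markers was 22.6 and 21.9 CPM.

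At the threshold of the choice, 22 young and 148 old cells held exactly 1 Cd8a or Cd8b1 UMI. In the old library these cells can be set beside 82 cells with exactly 2 such UMIs, all 1020 cells with at least 2, and 2188 T cells with none that otherwise met the rule. Ccl5 stood at 1001 CPM in cells with none, 5997 with 1, 10017 with 2 and 12856 with 2 or more. Gzmb stood at 67.5, 279.9 (245-318), 255 (214-302) and 725 in the same order, so that cells with exactly 1 and exactly 2 such UMIs did not differ beyond counting error. Myb, a transcription factor gene of early lymphocytes, ran otherwise and was at 191 with none, 328 with 1, 91.3 with 2 and 24.9 with 2 or more. Eomes (406 against 157) and Rgs16 (310.4 against 134) were likewise higher in old cells with 1 Cd8 UMI than in those with 2 or more. Cells near the threshold in the old library thus had several values closer to, or beyond, those of T cells without Cd8 transcripts.

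**Figure D1:**
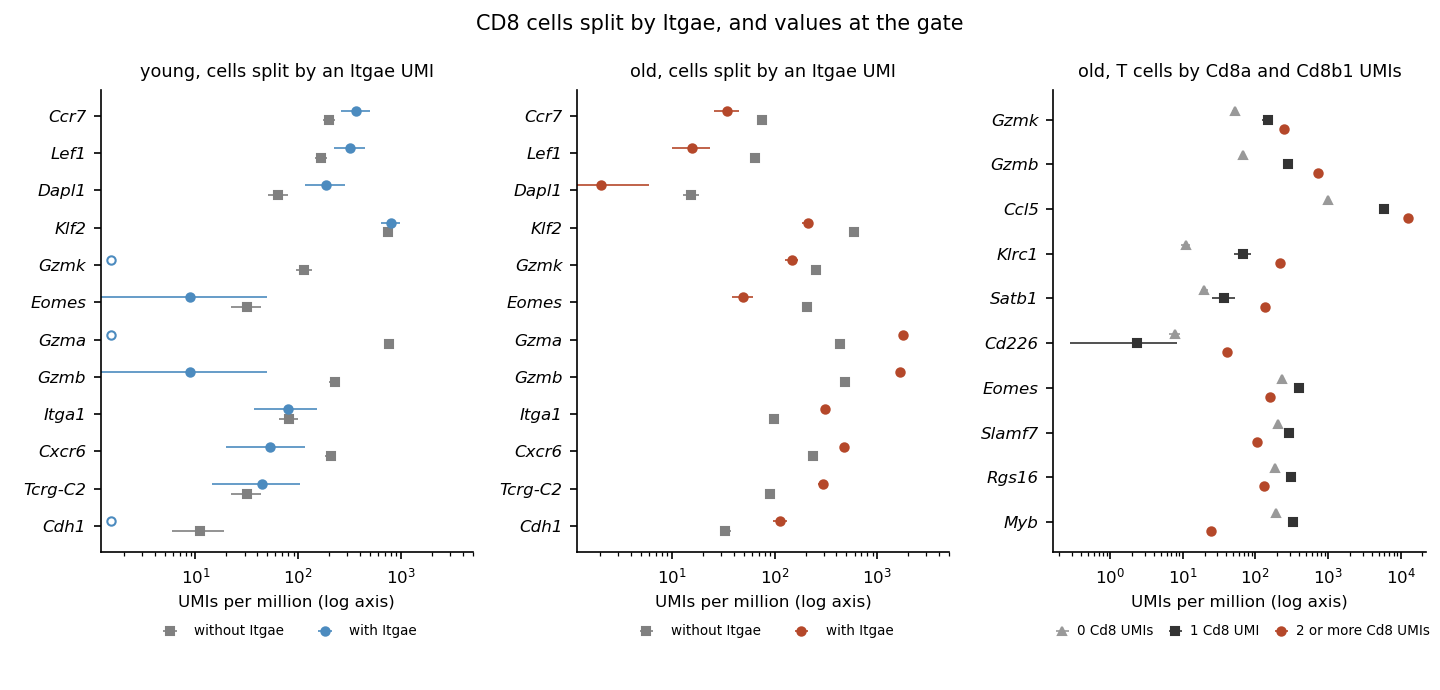
Levels in CPM (log axis, bars are exact 95% Poisson intervals) of young and old CD8 cells with and without an Itgae UMI, and of old T cells with 0, 1 or at least 2 Cd8a and Cd8b1 UMIs; open symbols at the left edge mark a level of 0. Gzma and Gzmb were higher in Itgae cells of the old library and absent or at 1 UMI in those of the young library, and Myb was highest in cells with exactly 1 Cd8 UMI.

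Across 5180 genes with a mean of at least 25 CPM over the 2 ages, 135 (2.61%) were at least 2-fold higher and 307 (5.93%) at least 2-fold lower in old CD8 cells, with a median log2 ratio of 0.02. In this comparison a gene is called by that fold alone, and no p-value was made from cells. A gene with less than 25 CPM at 1 age can pass the filter only through the other age, so counts and medians over genes that passed describe those genes and not their whole list. The shares over all genes, 2.61% higher and 5.93% lower, are to be set beside the counts of each list below. Of the 12 genes with the lowest ratios, 10 (Slc7a12, Aadat, Dnase1, Akr1c19, Lyplal1, Mpv17l, Slc7a13, Acsm3, Defb29 and Hao2) had higher levels in proximal tubule cells of the old library than in old CD8 cells, and the other 2 were Ramp1 and Dapl1. How many of the 307 lower genes are tubule genes was not counted. In tubule-low cells, 129 of 4702 genes (2.74%) were at least 2-fold higher and 71 (1.51%) at least 2-fold lower, so that the excess of lower genes was not seen there. With the cells marked as doublets left out, 101 genes were lower. The highest ratios in all CD8 cells belonged to S100a9, Lyz2, Umod, Jchain, Cxcl2, S100a8, Il1b, Ifitm3, Iigp1, H2-Ab1, H2-Aa and Tyrobp, most of them genes of myeloid, plasma or epithelial cells. Some of these values came from few cells. In the young library, 1 cell held 74.0% of the Slc7a12 UMIs, and 1 cell each held 60.0% for Akr1c19, 54.1% for Mpv17l, 51.2% for Defb29 and 50.2% for Aadat. Among the genes with the highest ratios, 1 old cell held 93.1% of the Jchain UMIs, and 1 held 63.4% of the S100a9 UMIs. The 10 macrophage, monocyte and neutrophil markers summed to 17.9 CPM in young and 628 in old CD8 cells. Their sum was 20.5 in old tubule-low cells, where Lyz2 and C1qa, members of this list, are at 0 by the choice of those cells. The sums of the other marker lists were, in young and old CD8 cells, 256 and 2788 for 9 genes of B and plasma cells (Jchain at 0 in young cells), 761 and 1108 for 9 of NK cells and ILC1 (Klra8 at 0, and 742 and 1174 in tubule-low cells), 68.6 and 174 for 7 of γδ T cells (Trdc and Trdv4 at 0), 144 and 188 for 7 of CD4 and regulatory T cells (Cd4 and Foxp3 at 0 by the choice, and 157 and 199 in tubule-low cells), 227 and 186 for 8 of ILC2 and 398 and 33.6 for 5 of erythroid cells (1039 and 3.01 in tubule-low cells). The part of such transcripts in other results was not tested beyond the values for tubule-low cells given beside them.

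**Figure D2:**
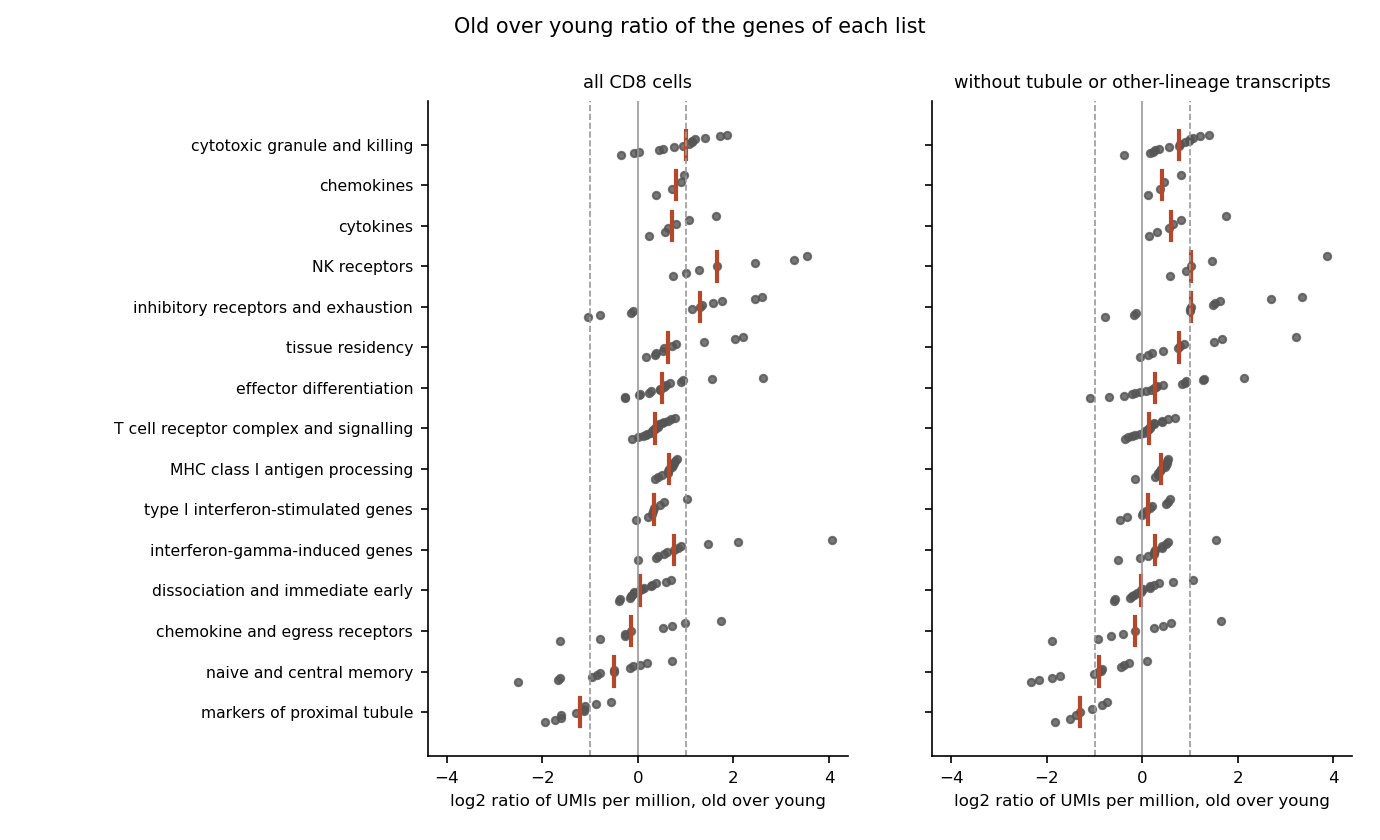
The log2 ratio of CPM, old over young (horizontal axis, dashed lines at 2-fold), for each gene of 15 lists that had a mean of at least 25 CPM (points) and the median of each list (red bars), in all CD8 cells and in tubule-low cells. Over the genes shown, inhibitory, NK receptor and cytotoxic lists had medians of at least 1 in all CD8 cells, and naive and tubule lists had negative medians in both panels.

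Gzmb, Gzmk and Prf1, which encode granule proteins of target cell killing, were higher in old CD8 cells. Of 15 genes on this list, 14 passed the filter on level, 7 were at least 2-fold higher and none at least 2-fold lower, with a median log2 ratio of 1.01 beside 0.02 for all genes. Over all genes, 2.61% were at least 2-fold higher. Of the 7, Gzmm and Tnfsf10 passed through their old level alone. Gzmb was at 208 (184-235) in young and 682 (665-699.7) in old cells, a log2 ratio of 1.71 (1.54 to 1.90). Gzmk was at 104 (86.8-123) in young and 237 (227-248) in old cells, a ratio of 1.195 (0.94 to 1.46), and perforin (Prf1) at 90.4 (74.7-108) in young and 199 (190.2-209) in old cells, a ratio of 1.14 (0.87 to 1.42). The counting intervals of young and old did not overlap for any of these 3 genes. At this depth intervals also lie apart at ratios below 2-fold, as for Nkg7 below. The share of all genes with intervals apart is not given here. Cst7, which encodes an inhibitor of granule proteases, was at 77.2 in young and 204 in old cells, and Gzmm, another granzyme, at 15.6 in young and 56.6 in old cells. Serpinb9, an inhibitor of granzyme B, and Tnfsf10, the death ligand TRAIL, were the other 2 genes past 2-fold, at 32.7 in young and 68.8 in old cells and 22.6 in young and 49.2 in old cells. Nkg7, at 1359 (1296-1425) in young and 2617 (2583-2651) in old cells, had a ratio of 0.94 (0.87 to 1.02) and so lay just below 2-fold, as did Fas ligand (Fasl) at 0.75. Gzma showed no such difference, at 692 (647-739) in young and 652 (635-669) in old cells, with a ratio of 0.35 in tubule-low cells.

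In tubule-low cells the median of the killing list was 0.78 and 4 of 14 genes were at least 2-fold higher: Gzmb (1.40), Cst7 (1.21), Gzmk (1.06) and Tnfsf10 (1.01). Prf1 (0.77), Gzmm (0.89) and Serpinb9 (0.99) then fell short of 2-fold. The granzymes differed in how they were spread over cells. The tenth of cells with most Gzma held 92.6% of its UMIs in young and 94.9% in old cells, and only 33 young and 242 old cells held any. For Gzmk, that share was 57.9% in young and 34.2% in old cells, with 60 and 754 cells holding any. Of cells with Gzmb, 60.0% of young and 75.8% of old also held Gzmk, against 20.9% and 54.2% of cells without Gzmb. Cells with Gzmb also had more CD8 UMIs (medians of 7 against 4 in young, 9 against 6 in old).

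**Figure D3:**
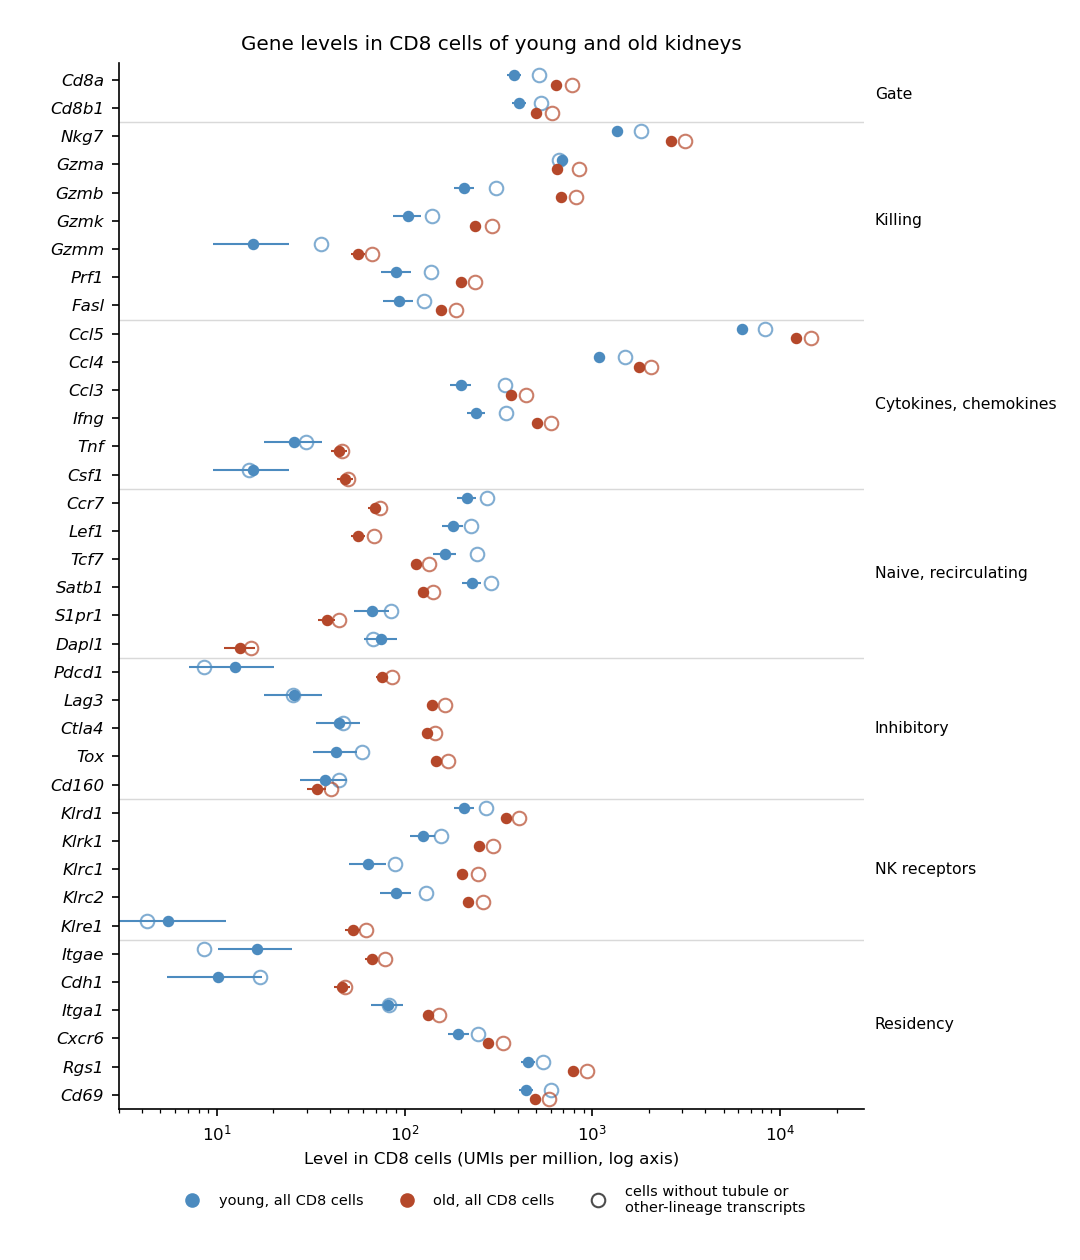
Levels of genes in CD8 cells of young (blue) and old (red) kidneys in CPM on a log axis, grouped by role; filled points with bars are all CD8 cells with the exact 95% Poisson interval, and open circles are tubule-low cells. Gzmb, Gzmk, Ccl5, Ifng, Lag3, Pdcd1 and Itgae were higher in old cells, and Ccr7, Lef1 and Dapl1 lower.

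Chemokine genes were higher in old cells, each by less than 2-fold. Ccl5 had a log2 ratio of 0.96 (0.93 to 0.995). Ccl3, at 199 (175-225) in young and 371 (358-384) in old cells, had a ratio of 0.90 (0.71 to 1.09), and Ccl4, at 1089 (1032-1147) in young and 1781 (1753-1809) in old cells, one of 0.71 (0.63 to 0.79). Xcl1, the ligand of cross-presenting dendritic cells, was at 125 in young and 163 in old cells. None of the 4 chemokines that passed the filter was called, with a median of 0.80 in all and 0.42 in tubule-low cells. Ccr2, which answers to monocyte chemokines, lay at 84.2 in young and 167 in old cells, and Cxcr3, the receptor of IFN-γ-induced chemokines, did not differ beyond counting error, at 101 (84.7-120.3) in young and 91.7 (85.5-98.3) in old cells. Of 13 chemokine and egress receptors, 9 passed the filter, with 1 called higher, 1 called lower (Ccr7) and a median of -0.14.

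Among 20 cytokine genes, 6 passed the filter, and Ifng and Csf1 were at least 2-fold higher in old cells. Ifng, the hallmark cytokine of these cells, was at 241 (215-269) in young and 507 (493-523) in old cells, with a log2 ratio of 1.08 (0.91 to 1.25) and 0.80 in tubule-low cells. It was detected in 46.9% of young and 67.2% of old cells, and in 19.4% and 33.7% after thinning. Csf1, the growth factor of macrophages, which passed the filter through its old level alone, was at 15.6 (9.52-24.1) in young and 48.2 (43.7-53.0) in old cells, at 14.8 and 49.8 in tubule-low cells, with 209 of 1168 old and 15 of 175 young cells holding a UMI. Tnf was at 25.7 in young and 44.9 in old cells, a ratio of 0.80 (0.29 to 1.36). Cells with Ifng also had more chemokine transcripts. In old cells with Ifng, Ccl3 was at 482 against 139.6 without it, and in young cells at 405 against 55.5. Il2 was sparse, with 2 UMIs in young and 38 in old cells. Il4, Il5, Il10, Il13 and Il21 were not detected in young CD8 cells, where a count of 0 allows a level of up to 2.88 CPM by the exact interval, and Il17a and Il5 were not detected in old cells (up to 0.420). The 16 young Il17a UMIs lay in 2 cells, 14 of them in 1 cell. Areg, at 3.12 in young and 17.9 in old cells, lay in 24 old cells and 3 young cells, and was at 4.32 in old tubule-low cells.

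Several genes of naive and central memory cells were lower in old CD8 cells. Of 14 on the list, 13 passed the filter, 3 were at least 2-fold lower and none higher, with a median log2 ratio of -0.50, and in tubule-low cells 5 of 12 were at least 2-fold lower with a median of -0.90. Dapl1, 1 of the 3, passed the filter through its young level alone, so that its call follows in part from the filter. The shares of all genes at least 2-fold lower were 5.93% in all and 1.51% in tubule-low cells. Ccr7 was at 214 (189.8-241) in young and 69.2 (63.8-74.9) in old cells, a ratio of -1.63 (-1.84 to -1.42). Lef1 was at 180 (158-205) in young and 56.6 (51.8-61.8) in old cells, a ratio of -1.67 (-1.90 to -1.44). Dapl1, a gene of naive CD8 cells of unclear function, was at 74.8 (60.6-91.4) in young and 13.2 (10.9-15.9) in old cells, a ratio of -2.50 (-2.90 to -2.10). Old values lay below the young intervals for all 3, and in tubule-low cells the ratios were -1.89 for Ccr7, -1.71 for Lef1 and -2.16 for Dapl1. The share of all genes with values apart in this way is not given here. Satb1, a chromatin organiser, was at 228 in young and 125 in old cells, and Tcf7, the partner of Lef1, at 164 in young and 116 in old cells, with ratios of -0.86 and -0.50. Il7r, the receptor of the survival cytokine IL-7, was at 193 in young and 178 in old cells. Igfbp4 had a ratio of -0.96 in all and -2.34 in tubule-low cells. It is also a gene of tubule cells here, at 609 in young and 774 in old tubule cells.

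Pdcd1, Lag3, Tox and Ctla4, genes of inhibitory receptors and of exhaustion, the state of T cells under lasting stimulation, were higher in old cells. Of 17 genes on this list found in the files, 6 were below the filter and 11 passed it, of which 7 were at least 2-fold higher and 1 at least 2-fold lower. Pdcd1, Entpd1 and Cd38 passed through their old level alone and Nt5e through its young level alone, so that their calls follow in part from the filter. In tubule-low cells 6 of 11 were at least 2-fold higher and none lower. The shares of all genes at least 2-fold higher were 2.61% in all and 2.74% in tubule-low cells. Pdcd1, which encodes PD-1, was at 12.5 (7.13-20.3) in young and 75.8 (70.1-81.8) in old cells, a ratio of 2.60 (1.89 to 3.42), with a UMI in 10 young and 310 old cells. Lag3, a receptor of MHC class II, was at 25.7 (17.7-36.1) in young and 139.9 (132-148) in old cells, a ratio of 2.44 (1.95 to 2.99). Tox, a transcription factor of exhausted cells, was at 42.9 (32.3-55.8) in young and 146 (138-154) in old cells, a ratio of 1.77 (1.38 to 2.19), and Ctla4, which competes for costimulatory ligands, at 44.4 (33.6-57.6) in young and 132 (124-139.5) in old cells, a ratio of 1.57 (1.18 to 1.98). Values of young and old did not overlap within counting error for these 4 genes, and their ratios in tubule-low cells were 3.34, 2.69, 1.52 and 1.63. How often this holds over all genes is not given here. The others past 2-fold were Entpd1 and Cd38, both ectoenzymes, and the nuclear receptor gene Nr4a2. Nt5e, an ectoenzyme also found in tubule cells, was at 42.1 in young and 20.4 in old cells and was the gene past 2-fold in the other direction. Cd160 (37.4 in young and 34.1 in old cells) and Nr4a3 (68.6 in young and 63.9 in old cells) did not differ beyond counting error. Havcr2, below the filter, was at 3.12 in young and 28.4 in old cells.

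In the old library, the 310 cells with Pdcd1 also held more of the other inhibitory genes than the 858 without it. Lag3 was at 265 (245-286) against 91.1 (83.8-98.9), Tox at 279 against 94.3 and Ctla4 at 207 against 103. Ifng was at 667 against 445, Gzmb at 917 against 590.5 and Ccl5 at 16778 against 10401. Rgs16, a regulator of G protein signalling, was at 334 against 79.4. Gzma was lower in the cells with Pdcd1, at 399 against 751, and Gzmm and Tcf7 were lower too, at 8.93 against 75.3 and 62.5 against 136. Kap was close in both, at 3557 and 3608. With 10 young cells holding Pdcd1, the same split was not read at that age.

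Klrc1 and Klrc2, receptors of the NK families, which set the threshold of killing, were also higher in old cells. Of 15 genes on this list, 8 were below the filter and 7 passed it, of which 6 were at least 2-fold higher and none lower, and 3 of 5 in tubule-low cells. Beside these stand shares of 2.61% and 2.74% of all genes. Klre1, Fcer1g and Tyrobp passed through their old level alone, so that their calls follow in part from the filter. Klrc1, which encodes the inhibitory NKG2A, was at 63.9 (50.8-79.3) in young and 201 (192-211) in old cells, a ratio of 1.66 (1.34 to 1.99). Klrc2, which encodes the activating NKG2C, was at 89.6 (74.0-108) in young and 218 (208-228) in old cells, a ratio of 1.28 (1.01 to 1.56). Klrc1 and Klrc2 are close paralogs, and reads could be shared between them. Klrk1 (NKG2D) was at 125 (106-146) in young and 249.8 (239-260.5) in old cells, at the edge of 2-fold with 1.002 (0.77 to 1.24), and Klrd1, the partner of the NKG2 chains, at 207 in young and 345 in old cells (0.74). Klre1 was at 5.46 (2.19-11.2) in young and 52.8 (48.1-57.8) in old cells, with a UMI in 5 young and 187 old cells and a ratio of 3.87 in tubule-low cells. The adaptors Fcer1g and Tyrobp, which myeloid and NK cells also use, were at 21.0 in young and 116 in old cells and 8.57 in young and 100 in old cells. In tubule-low cells Fcer1g was at 17.0 and 27.8, and it lay in 3.43% of young and 4.37% of old cells, so that its sum came from few cells. Ncr1 and Klrb1c, which define NK cells, were at 3.90 in young and 5.24 in old cells and 0.779 in young and 1.03 in old cells.

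Of 14 genes of tissue residency, 10 passed the filter, 3 were at least 2-fold higher in old cells and none lower, with a median log2 ratio of 0.64 in all and 0.76 in tubule-low cells. Over all genes, 2.61% were at least 2-fold higher and 5.93% at least 2-fold lower. Itgae, which encodes CD103, the integrin that binds E-cadherin on epithelium, was at 16.4 (10.1-25.02) in young and 66.8 (61.5-72.4) in old cells, a ratio of 2.03 (1.40 to 2.73). In tubule-low cells Itgae was at 8.48 in young and 78.7 in old cells, a ratio of 3.21. Cdh1, E-cadherin itself, which epithelium also makes, was at 10.1 (5.40-17.3) in young and 46.5 (42.1-51.2) in old cells, with a ratio of 1.51 in tubule-low cells, and Litaf at 28.1 (19.7-38.8) in young and 73.2 (67.6-79.0) in old cells. Itgae and Cdh1 passed the filter through their old level alone. Old Itgae levels also differed between cells split by sex transcripts, as given below. Itga1 (CD49a) was at 81.1 in young and 133 in old cells, Cxcr6, which holds cells in tissue, at 193 in young and 277 in old cells, and Rgs1 at 454 in young and 790.1 in old cells, each higher in old cells by less than 2-fold. Cd69, an early marker of residency and of activation, was at 443 (408-481) in young and 496 (481-511) in old cells. Zfp683, the residency factor Hobit, had 1 UMI in young and 7 UMIs in old cells. Of 9 integrin genes, Itgae was the 1 of 8 past the filter that was called.

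The cells that held Itgae were of different composition at the 2 ages. There were 12 in the young and 168 in the old library. Among Itgae cells, 9 of 12 young and 9 of 168 old ones also held Ccr7, and 9 and 12 held Lef1. In young Itgae cells, Ccr7 was at 366 (263-496) and Dapl1 at 187 (116-286), Gzma, Gzmk and Cdh1 were not detected, and Gzmb had 1 UMI. In old Itgae cells, Gzma was at 1760.4 (1693-1829.9) against 432 (417-447) in old cells without Itgae. Gzmb was at 1672 against 485, Itga1 at 310 against 97.9, and Cxcr6 at 473 against 238. Klf2, a factor of recirculating cells, and Eomes ran the other way, at 209 against 593 and 49.5 against 208. Gzmk was at 146 against 255, so that the granzymes differed in their relation to Itgae. Tcrg-C2, a constant segment of the gamma chain locus with near-identical copies, was at 293 against 90.2, and Trdc was absent by the choice of cells. Old Itgae cells held a median of 14 Cd8 UMIs against 6 in the others, and 6954 against 5791.5 UMIs in all. Among the 117 tubule-low old Itgae cells, Gzma was at 2524 and Itga1 at 388, and only 4 young Itgae cells were tubule-low.

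Of the factors that direct effector differentiation, Eomes stood apart. It was at 29.6 (21.0-40.7) in young and 181 (173-191) in old cells, a log2 ratio of 2.61 (2.15 to 3.12), with a UMI in 14.9% of young and 54.5% of old cells, and 2.14 in tubule-low cells. Tbx21, its relative that encodes T-bet, was at 38.2 (28.3-50.5) in young and 38.9 (34.8-43.2) in old cells. Of 21 effector genes, 16 passed the filter, 2 were at least 2-fold higher (Eomes, and Irf8, which passed through its old level alone) and none lower, with a median of 0.51. In tubule-low cells 18 passed, 3 were at least 2-fold higher and 1 at least 2-fold lower, with a median of 0.26. Irf8 was at 17.1 in young and 49.9 in old cells, Batf at 29.6 in young and 57.2 in old cells and Runx3, which maintains CD8 identity, at 187 in young and 298 in old cells. Klrg1, a mark of terminal effector cells that was below the filter, was at 28.8 in young and 13.7 in old cells. Among costimulatory genes, Slamf7 was at 57.7 in young and 124 in old cells (1.10, and 0.66 in tubule-low cells) and Cd226, a receptor that promotes killing, ran the other way at 88.1 (72.6-106) in young and 37.4 (33.4-41.6) in old cells (-1.24, and -1.29).

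Of 18 genes of the T cell receptor and its signalling none was called, with a median of 0.36 in all and 0.14 in tubule-low cells, and Cd5 was at 111 in young and 111 in old cells. Of 11 MHC class I genes none was called, yet all 11 ratios were above 0, with a median of 0.66, and 0.39 in tubule-low cells. H2-K1 was at 2227 in young and 3937 in old cells. Of 16 genes induced by IFN-γ, 11 passed the filter, and all 11 ratios were above 0. Gbp2, Irgm1 and Iigp1 were at least 2-fold higher, and Gbp2 and Iigp1 passed through their old level alone. Iigp1 was also present in tubule cells, at 1.19 in young and 392 in old tubule cells, at 3.90 in young and 65.4 in old cells among CD8 cells, and at 10.6 and 8.46 among tubule-low CD8 cells, where Gbp2 was the list's 1 gene past 2-fold and the median was 0.26. Of 8 type I interferon-stimulated genes Irf7 was called higher, with a median of 0.33, and none of 10 in tubule-low cells. The 15 dissociation and immediate early genes had a median of 0.04, the 8 cell cycle genes outside the choice one of 0.21, and none of either list was called. Of 13 glycolysis genes 1, Hk1, was called higher, at 17.1 in young and 45.6 in old cells, and it too passed through its old level alone. In the Fas pathway, none of 8 was called, and Fas itself was at 10.9 in young and 13.0 in old cells. None of 7 genes of the common gamma chain receptors was called, and Il2rb, a subunit of the IL-2 and IL-15 receptors, was at 151 in young and 220.5 in old cells.

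By rank of ratio in tubule-low cells, the 12 highest genes were Umod, Klk1, Klre1, Egf, Spp1, 2900026A02Rik, Ier3, Pdcd1, Itgae, Cd74, Lag3 and Ifitm1. Umod, Klk1 and Egf are genes of the distal nephron, and among all old CD8 cells 1 held 53.0% of the Umod UMIs and 1 held 56.6% of the Egf UMIs. The immediate early gene Ier3 was at 8.48 in young and 91.7 in old tubule-low cells. The 12 lowest were Ramp1, Rflnb, Tdrp, Igfbp4, Fam241a, Guca2b, Gatm, Pdzk1, Dapl1, Gk, Tesc and Ugt2b38. Ramp1, a partner of the receptor of the neuropeptide CGRP, was at 55.1 and 5.26, and Tesc at 44.5 and 10.9. Both were low in tubule cells (1.56 and 1.22 in the young library), whereas Guca2b, Gatm, Pdzk1, Gk and Ugt2b38 were each higher there than in CD8 cells.

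Set against conventional CD4 T cells of the same library (122 young, 1120 old), 112 of 5216 genes (2.15%) in the young and 69 of 5247 (1.32%) in the old library were at least 2-fold higher in CD8 cells. The filter here took the mean CPM of the 2 classes. A gene with less than 25 CPM in CD4 cells could pass it only through its CD8 level, as Gzmm did in the old library. Counts over genes that passed therefore describe those genes and not their whole list. Of the killing genes, 9 of 11 in the young and 8 of 14 in the old library were at least 2-fold higher, and of the chemokines 4 of 4 and 4 of 5. Of the NK receptors, 4 of 6 in the young and 5 of 7 in the old library were higher. Of the inhibitory genes, none of 6 was higher in the young, and 1 was higher and 4 lower of 11 in the old library. The share of all genes at least 2-fold lower in CD8 than CD4 cells is not given here, so the 4 are not read as a trait of the list. The 12 genes ranked highest by the smallest of their folds over CD4 and over coreceptor-negative T cells in the 2 libraries were Gzmm, Gzmb, Wdr95, Itgae, Klrc2, Cd160, Atp8b4, Gzma, Klrc1, Ccl4, Ccl5 and Ctsw. Gzmm was at 56.6 in old CD8 cells, 3.45 in CD4 cells, 2.95 in coreceptor-negative T cells and 2.72 in NK cells and ILC1, and in the young library at 15.6, 1.04, 0.865 and 1.29. Gzmk was likewise low in NK cells and ILC1, at 0.643 in the young and 2.72 in the old library. Gzma and Prf1 were higher in NK cells and ILC1 than in CD8 cells, Gzma at 9989.9 against 652 and Prf1 at 1429 against 199 in the old library.

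**Figure D4:**
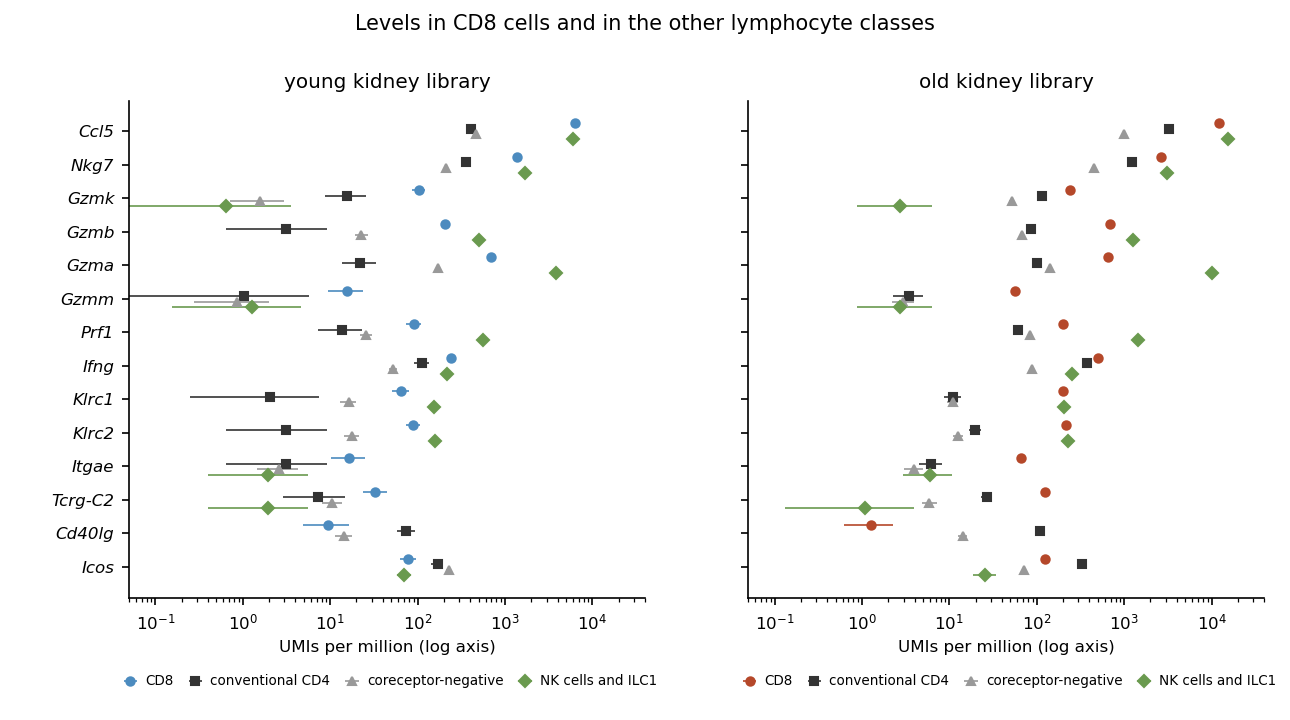
Levels of 14 genes in CPM (log axis, bars are exact 95% Poisson intervals) in CD8 cells, conventional CD4 T cells, coreceptor-negative T cells and NK cells with ILC1 of the young and the old library; a class at 0 has no point. Gzmm and Itgae were highest in CD8 cells in both libraries, Gzma and Prf1 were highest in NK cells and ILC1, and Cd40lg was highest in CD4 cells.

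The distance between CD8 and CD4 cells was smaller in the old library for several genes. Ccl5 in CD4 cells was at 407 in the young and 3287 in the old library, and the log2 ratio of CD8 over CD4 cells was 3.94 (3.79 to 4.09) and 1.89 (1.87 to 1.91). Gzmb in CD4 cells was at 3.12 and 85.5, and Gzmk at 15.6 and 115. Eomes in coreceptor-negative cells was at 5.53 in the young and 235 in the old library, and Lag3 at 1.73 and 121. Higher values of Eomes and Lag3 in the old library were therefore also found outside the CD8 cells. Pdcd1 was at 31.2 and 89.6 in CD4 cells. For Itgae, the CD4 values were 3.12 and 6.11, within counting error of each other. These differences of differences were not tested.

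Within cells that carried Y-linked transcripts without Xist (102 young, 460 old) and within those with the reverse (18 young, 424 old), Gzmk, Eomes, Pdcd1 and Ccr7 had the same direction. The log2 ratio of Gzmk was 1.44 and 2.57 in the former and the latter, that of Eomes 2.56 and 2.15, that of Pdcd1 2.93 and 3.16, and that of Ccr7 -1.66 and -1.89. In the old library itself, Itgae was at 37.0 (31.0-43.7) in cells with Y-linked transcripts and 116 (105-129) in those with Xist, and Dapl1 at 5.40 and 26.6. Cells with Xist and no Y-linked transcripts were 10.3% of young and 36.3% of old CD8 cells. The old over young ratio of Itgae within each kind is not given here. The part of these proportions in its ratio over all cells was not tested. Pdcd1 and Gzmk ran the other way, at 90.9 and 55.1 for Pdcd1 and 266 and 182 for Gzmk. Sex and mouse cannot be told apart in these pools.

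Transcripts of variable segments of the T cell receptor were sparse in these 3′ libraries. Trav segments gave 33 UMIs in 22 young and 382 UMIs in 224 old CD8 cells, and Trbv segments 23 UMIs in 20 young and 209 UMIs in 171 old cells. In the old library, Trbv12-2 was found in 43 cells, 25.1% of those with a Trbv UMI, and Trav3-3 in 32 cells, 14.3% of those with a Trav UMI. Only 1 old cell held both. Of the 32 cells with Trav3-3, 16 held Xist without Y-linked transcripts and 6 the reverse, and of the 43 with Trbv12-2, 17 and 18. In the young library, Trbv12-2 was found in 3 and Trav3-3 in 2 cells.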

How the data were processed

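Droplet-based 3′ scRNA-seq (10x Genomics) was performed on 2 libraries, 1 per age. The deposited files hold UMI counts per gene and cell, which per the file headers and the labels the authors made with Cell Ranger (3 in the labels, 3.1.0 in the matrix header) on mm10, over 31053 genes. No value was normalised before deposit, and no cell annotation of the authors was used here.

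Barcodes were filtered at the limits named in the study's methods (200 genes as the minimum, 20% of UMIs from mitochondrial genes as the maximum), and CD8 cells were taken by the rule given above. Counts were summed over cells and scaled to CPM, with exact Poisson intervals for levels, exact Clopper-Pearson intervals for shares and exact binomial intervals for log2 ratios, all at 95% and all for counting error only. A gene was called at 2-fold or more among those whose mean of the 2 CPM was at least 25. With 1 library per age there is no replicate and no test was made. A count of 3 was the floor for ratios. Shares of cells were also given after each cell was thinned to 1000 UMIs (seed 7), and doublets were called with Scrublet in Scanpy 1.11.5 and kept. Promoter sequences are from RefSeq.

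The members, the 30 gene lists (21 of expression, 9 of markers of other cells) and the comparisons were chosen with earlier results of these data known. All list genes could be named, together with the 12 genes at each end of the old over young ratio (mitochondrial, ribosomal, hemoglobin, immunoglobulin, Xist, Y-linked and receptor V genes excepted) and the 12 leading genes over other T cells. The 12 genes at each end among tubule-low cells, and the splits by Itgae, Pdcd1 and Ifng, were looked at after the data were seen. The scripts were tested on simulated data. Python 3.11.15, NumPy 2.4.6, SciPy 1.17.1, pandas 2.3.3 and Matplotlib 3.10.9 were used. Alternatives changed the cell filters, the Cd8 and CD3 thresholds, doublets, sex transcripts, the scaling, the filter on level and the thinning depth. A few genes, and the results that need them, are not reported here.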

Additional observations from a re-analysis of the deposited data

Results flagged for a closer look

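For 6 genes, the old over young ratio lay on opposite sides of 0, beyond counting error, in 2 kinds of CD8 cell. Only genes of the lists, the ranked genes and a few others were examined, where they passed the filter, and their number is not given here. Genes whose interval reached 0 in either kind were not counted. The 2 kinds are cells with Y-linked transcripts and no Xist, and cells with Xist and no Y-linked transcripts. The latter rest on 18 young cells, and none of these differences between the 2 kinds of cell was tested. Gzma had a log2 ratio, old over young, of -0.69 in the former and 3.40 in the latter, with young levels of 959 and 73.8 CPM and old levels of 594 and 779. Of 888 young and 5722 old Gzma UMIs, few cells held most, as given above. Trbc1, a receptor constant segment with a near-identical copy, had ratios of -0.27 and 1.06, and the chaperone gene Hsp90aa1 -0.43 and 0.49. Spp1 had ratios of 1.53 and -1.05, the tubule gene Gpx3 0.13 and -1.96, and Malat1 0.076 and -0.38.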

How the results depend on the processing

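No paired analysis was possible because each age is 1 library. Of 64 genes past 2-fold between old and young cells whose ratio was recomputed, 41 were past 2-fold in each setting that gave them a ratio and 23 were not in at least 1, and other genes named as past 2-fold (such as Cst7, Csf1 and Irf8) were recomputed only in tubule-low cells and within cells split by sex transcripts. Among the 23, Prf1 and Ifng were each past 2-fold in 8 of 13 settings, Klrk1 in 4, Fcer1g in 9 and Gzmm in 11. Gzmk, Klrc2 and Itgae were each past 2-fold in 12 of 13. The share of old kept cells that were CD8 cells was 12.5% with at most 10% mitochondrial UMIs, 9.97% with at least 2 Cd8 UMIs and 9.59% without cells holding a UMI of the 6 other-lineage genes. The count of genes at least 2-fold lower in old cells, 307 as reported, was 101 without doublets, 196 without cells holding an other-lineage UMI, 71 in tubule-low cells, 85 in tubule-low cells with at least 2 Cd8 UMIs and 136 by the mean of each cell's CPM. The genes at least 2-fold higher in old CD8 cells and the genes at least 2-fold lower in old CD8 cells numbered 316 and 559 with a mean CPM of at least 10, 69 and 170 with at least 50, 1076 and 5303 with no filter, and 504 and 848 in cells with Xist only, of which 18 were young. Tubule-low cells numbered 92 young cells, and with at least 2 Cd8 UMIs 79 young and 738 old cells. Genes at least 2-fold higher in young CD8 than CD4 cells, 112 as reported, were 202 in tubule-low cells, 229 with at least 2 Cd8 UMIs besides, and 192 with a total that excluded Malat1, hemoglobin, ribosomal and mitochondrial genes.

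The log2 ratio changed sign for S100a8 (-0.23) and Il1b (-0.62) without cells holding an other-lineage UMI, for Cxcl2 (-0.50) and Iigp1 (-0.33) in tubule-low cells, for Iigp1 (-0.44) in those with at least 2 Cd8 UMIs, for Klk1 (-0.56) and Egf (-0.93) in cells with Y-linked transcripts only, and for Fcer1g (-0.050) in cells with Xist only. S100a9 gave a ratio in 11, Lyz2 in 10 and Jchain in 6 of 13 settings. In tubule-low cells S100a9, S100a8 and Il1b were at 0 in young cells and at 4.13, 2.44 and 1.69 CPM in old cells, which gives no direction, and Lyz2 and Jchain were at 0 by the choice of those cells. Beyond the removal of cells or genes that each setting makes, the cause was not tested. Depth limits the young values most, with 1283020 UMIs in 175 cells.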

Other observations

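In the old library, 308 CD8 cells held Tcrg-C2, and Itgae was detected in 32.8% of them against 7.79% of the other old CD8 cells. In the young library, 16 cells held Tcrg-C2, and Itgae was detected in 6.25% of them against 6.92% of the others. Tcrg-C2 stood at 32.7 (23.6-44.2) in young and 124 (116-131) in old cells and Tcrg-C4, another constant segment of that locus, at 16.4 (10.1-25.02) in young and 38.4 (34.4-42.7) in old cells. Reads could be shared among the near-identical copies of these segments.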
